A study of Mus musculus with 24 samples.

Results

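The immediate early genes Fos, Fosb, Jun, Junb, Egr1 and Atf3 and the feedback genes of the ERK pathway Dusp1, Dusp6, Spry2 and Spry4 were followed in mouse lung given irradiation, drugs or both. The 10 genes were chosen by name: every probe that was no control spot and carried one of these gene names in the array files was taken. This gave 13 probes and 31 spots, of 41174 probes, 43379 spots and 27401 genes in all, and all 10 genes were bright enough to be tested, as were 20421 of the 27401 genes. Spry4 was bright enough only through irradiated lungs.

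The study measured total RNA from shock-frozen lung on 24 single-colour Agilent arrays. It had 12 groups of 2 biological replicates in 6 drug arms, which were Ly, Imatinib, Su, the pairs Ly+Imatinib and Ly+Su, and no drug. Each arm had an irradiated group (named Irradiation, with + and the drug where one was given) and an unirradiated group (named by the drug, or ctrl for the untreated lungs). Lungs were taken 24 days after irradiation. Imatinib blocks tyrosine kinases, among them ABL, KIT and the PDGF receptors, and the labels give Ly and Su only in this short form. The labels give no strain, sex, age, radiation dose or drug dose, and whether each array is 1 animal is not said beyond the word biological, so the p values measure the spread between these samples. In whole lung, fewer cells of a type and less RNA per cell cannot be told apart.

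Immediate early genes are switched on within minutes of a growth factor, stress or injury signal, without new protein synthesis, and their RNAs decay fast. Growth factor receptors act through RAS, RAF, MEK and ERK, whose targets include the transcription factors ELK1 and SRF at these genes. Fos and Jun family proteins pair to form the AP-1 transcription factor, EGR1 is a zinc finger factor, and ATF3 is a stress-induced factor of the ATF/CREB family. ERK signalling also induces its own brakes: the phosphatases DUSP1 and DUSP6, which remove phosphate from MAP kinases, and the Sprouty proteins SPRY2 and SPRY4, which dampen signalling between receptor and ERK.

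The promoters of 4 of the 10 genes are printed because Junb and Dusp1 correlated with Fos over the arrays and Jun did so in the opposite direction. Each run is the 250 bases before the RefSeq gene start in the assembly GRCm38.p6, 5′ to 3′ on the strand of the gene, and such promoters were at hand for 8 of the 10 genes, Egr1 and Spry4 not being among them. Fos lies at chr12:85473640-85473889 on the plus strand, Junb at chr8:84978749-84978998, Dusp1 at chr17:26508473-26508722 and Jun at chr4:95052223-95052472 on the minus strand. In Fos, Junb and Dusp1 the capitals mark TGACG, the half-site of the cyclic AMP response element (CRE) that ATF and CREB factors bind, and in Dusp1 also the palindromic CRE TGACGTCA, which contains the half-site on both strands. In Jun they mark an AP-1 or CRE-like match to TGANNTCA.
Fos: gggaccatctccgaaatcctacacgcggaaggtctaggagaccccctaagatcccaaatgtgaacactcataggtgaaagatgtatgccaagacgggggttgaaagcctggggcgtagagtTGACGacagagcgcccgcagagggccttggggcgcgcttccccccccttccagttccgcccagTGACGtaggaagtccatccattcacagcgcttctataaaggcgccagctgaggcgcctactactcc
Junb: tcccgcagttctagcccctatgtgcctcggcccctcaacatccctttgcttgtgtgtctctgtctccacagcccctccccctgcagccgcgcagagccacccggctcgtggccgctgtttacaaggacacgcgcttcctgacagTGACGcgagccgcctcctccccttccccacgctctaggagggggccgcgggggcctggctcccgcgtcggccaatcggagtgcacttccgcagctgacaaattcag
Dusp1: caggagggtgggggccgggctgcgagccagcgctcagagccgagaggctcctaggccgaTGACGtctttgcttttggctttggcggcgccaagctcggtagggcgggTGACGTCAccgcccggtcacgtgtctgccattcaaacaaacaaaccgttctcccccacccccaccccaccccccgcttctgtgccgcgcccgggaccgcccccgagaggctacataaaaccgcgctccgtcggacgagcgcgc
Jun: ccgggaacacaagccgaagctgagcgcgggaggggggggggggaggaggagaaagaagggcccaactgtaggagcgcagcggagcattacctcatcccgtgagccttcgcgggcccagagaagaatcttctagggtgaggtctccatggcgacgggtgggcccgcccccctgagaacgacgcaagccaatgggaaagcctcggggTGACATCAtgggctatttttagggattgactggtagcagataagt
Both strands were searched. TGACG was in the promoters of Atf3, Dusp1, Fos, Fosb and Junb, 5 of the 8, against 17.8% of the 32851 mouse promoters of this length. TGACGTCA was in 1 of the 8, Dusp1, against 1.55% of all promoters. TGANNTCA, of which TGACGTCA is a special case, was in Dusp1 and Jun, against 11.9% of all. The AP-1 site TGANTCA (6.75% of all promoters) and the CArG box bound by SRF (1.47% of all) were in none of the 8 windows. A match describes these letters and is not a site of binding. Bases farther upstream and the promoters of Egr1 and Spry4 were not searched, so these genes may have such sites elsewhere.

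Levels are log2 intensity minus the log2 of the 75th percentile of the same array, so that 0 is the brightness of that percentile and negative values are dimmer spots. Probes differ in how brightly they shine, so levels were compared between samples and not between genes. The signal of the 75th percentile was 2478 on replicate 1 of Irradiation and 703 to 1759 on the other 23 arrays, and the scanner software marked 62.0% to 78.5% of an array's spots as well above background. That share was highest on replicate 2 of Irradiation+Ly+Imatinib (78.5%), Irradiation+Ly+Su (77.9% and 75.9%) and replicate 2 of Irradiation+Imatinib (73.3%). The lowest signal so marked was 4.26 to 4.43 on those of these arrays that had Ly, against 6.47 to 22.4 on others. The share was 63.7% to 68.6% on the other irradiated arrays and 62.0% to 66.9% on the unirradiated ones. The part of this in the results of dim probes was not tested. Precision is limited by having 2 arrays a group, and the main tests took all groups to vary alike. Arrays lay 4 to a slide on 6 slides, each with irradiated lungs or with unirradiated lungs and never both, so slide and irradiation cannot be told apart. Fos and Jun had 10 spots each per array. These spread more on replicate 1 of ctrl (SD 0.35 for Fos, 0.40 for Jun) and replicate 1 of Irradiation (0.43 for Fos, 0.25 for Jun) than on the other arrays (0.05 to 0.16 for Fos, 0.03 to 0.07 for Jun). All 180 probes with 10 spots had a median SD of 0.11 on that ctrl array and 0.15 on that Irradiation array, against 0.05 to 0.08 on the others. The differences of Spry4, Jun, Spry2 (its probe of highest mean) and Fosb and the correlations with Fos are also given without these arrays. So are those counts of gene lists that moved by over 1.5 times. For the correlations and lists this check was chosen after seeing the data. The share of all genes that passed without an array is not given, so a count that moved is not read as particular to its list. The lung markers Sftpc of alveolar type II cells, Scgb1a1 of club cells and Ager of alveolar type I cells were well above background on all 24 arrays.

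Of the 10 genes, each represented by its probe of highest mean, Spry4 rose and Jun and Spry2 fell in irradiated lung when the 6 drug arms were averaged. A second Spry2 probe rose, so the direction of Spry2 depends on the probe. Fos, Fosb, Junb, Egr1, Atf3, Dusp1 and Dusp6 did not pass the test. Spry4 was 3.81-fold higher as measured, but against a probe well above background on 4 of the 12 unirradiated arrays, so that the fold is not exact. A tested gene had to be well above background on both arrays of a group, and Spry4 met this only in irradiated groups. Without that filter its averaged log2 difference was 1.93 (adjusted p = 5.35e-05, limma). Jun was 1.21-fold lower, and the Spry2 probe used 1.22-fold lower. The averaged comparison set 12 irradiated arrays against 12 unirradiated ones, and with limma and Benjamini-Hochberg adjustment over 20421 genes 32.6% of all genes passed at an adjusted p under 0.05, 16.9% as higher and 15.7% as lower. A count of 3 of 10 is close to that share. The median difference of the 10 genes was 0.08 on the log2 scale, against 0.01 over all genes.

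**Figure D1:**
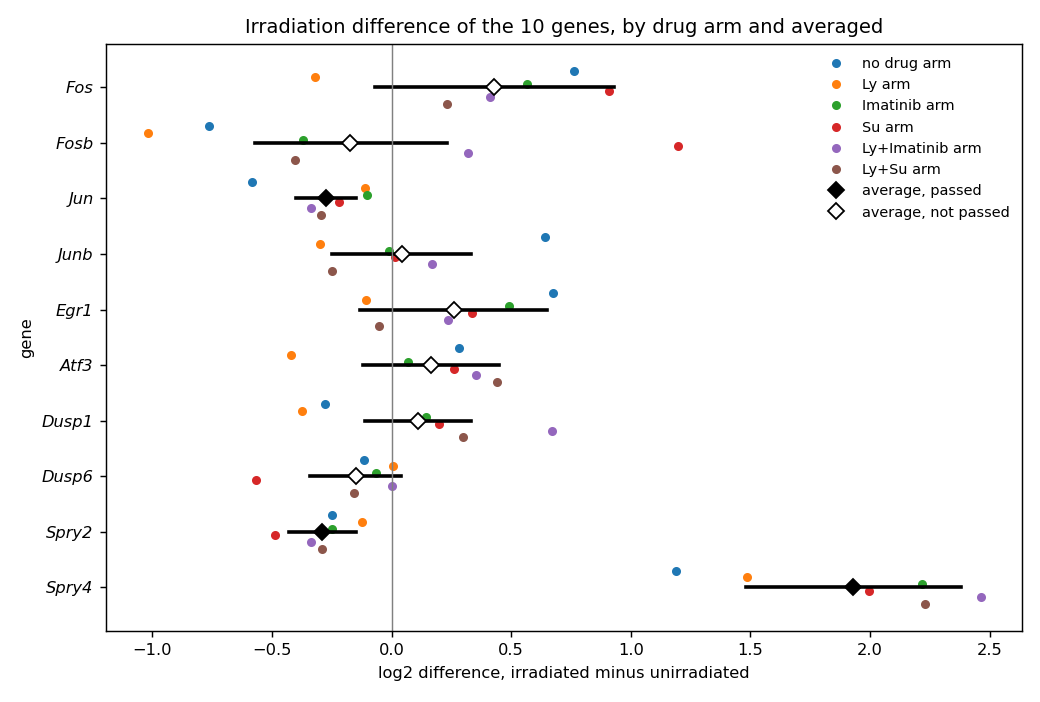
Log2 difference in level, irradiated minus unirradiated, for each of the 10 genes. Coloured points are the 6 drug arms (2 arrays against 2), diamonds the average over arms with its 95% interval, filled where the adjusted p was under 0.05. Spry4 lies to the right of 0 and Jun and Spry2 to the left of it in all 6 arms, while the arms of Fosb range from -1.02 to 1.20.

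SPRY4 is a Sprouty protein whose gene is induced by ERK signalling. Its level was -5.50 to -2.55 with a median of -3.29 in the 12 irradiated arrays, and -7.00 to -4.92 with a median of -5.42 in the 12 unirradiated arrays. The probe was well above background on 11 of the 12 irradiated arrays and on 4 of the 12 unirradiated ones, so the unirradiated values lie at or close to background. The share of all spots so marked was also highest on irradiated arrays, and its part in this contrast was not tested. Of the irradiated arrays, 10 lay above every unirradiated array. The averaged difference was 1.93 ± 0.21 (SE; 95% interval 1.48 to 2.38; adjusted p = 3e-05, limma). The irradiated mean was higher in all 6 arms, and in 5 of them both irradiated arrays lay above both unirradiated arrays.

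In single arms Spry4 was at -3.34 and -2.88 in Irradiation+Imatinib, against -5.06 and -5.59 in Imatinib. It was at -3.06 and -3.25 in Irradiation+Su, against -4.92 and -5.38 in Su. The Irradiation+Ly+Imatinib arrays had -2.55 and -3.02, against -5.38 and -5.11 in Ly+Imatinib. None of these 3 pairs of groups overlapped, and 1 of the 2 arrays of each unirradiated group was well above background. The differences were 2.21 ± 0.52 in the Imatinib arm (adjusted p = 0.035, limma), 2.00 ± 0.52 in the Su arm (adjusted p = 0.0292) and 2.46 ± 0.52 in the Ly+Imatinib arm (adjusted p = 0.0221). With normexp background correction they were 1.10 (0.0422), 1.02 (0.0278) and 1.32 (0.0108). Irradiation+Ly+Su had -3.33 and -3.24, against -5.34 and -5.69 in Ly+Su, where the probe was not well above background on either array. Spry4 was 4.69-fold higher there as measured, a log2 difference of 2.23 (95% interval 1.12 to 3.34; adjusted p = 0.0318, limma). That fold is not exact, and with normexp the difference was 0.89 (0.108). Spry4 was the 1 gene of the 10 that passed in each of these 4 arms, where 2.74% (Imatinib), 10.1% (Su), 3.43% (Ly+Imatinib) and 3.31% (Ly+Su) of all genes passed. Spry4 met the filter on dim probes only in irradiated groups. Without that filter its adjusted p values in limma were 0.0497, 0.0459, 0.0352 and 0.011 in the same order.

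The 2 other arms had 1 high and 1 low irradiated array. Irradiation had -3.67 and -4.98, against -5.57 and -5.46 in ctrl, where neither array was well above background. The fold was 2.28 as measured and is not exact, from a log2 difference of 1.19 that did not pass (95% interval 0.08 to 2.30; adjusted p = 0.125). That difference was 0.53 (0.722) without replicate 1 of Irradiation, 1.13 (0.26) without replicate 1 of ctrl, 1.85 (0.0214) without replicate 2 of Irradiation and 0.16 (0.619) with normexp. Irradiation+Ly had -4.01 and -5.50, against -5.48 and -7.00 in Ly, a difference of 1.49 ± 0.52 (adjusted p = 0.64). The drug by irradiation interaction was not passed either (adjusted p = 0.691, limma F test), so a difference in the Spry4 response between arms was not shown.

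**Figure D2:**
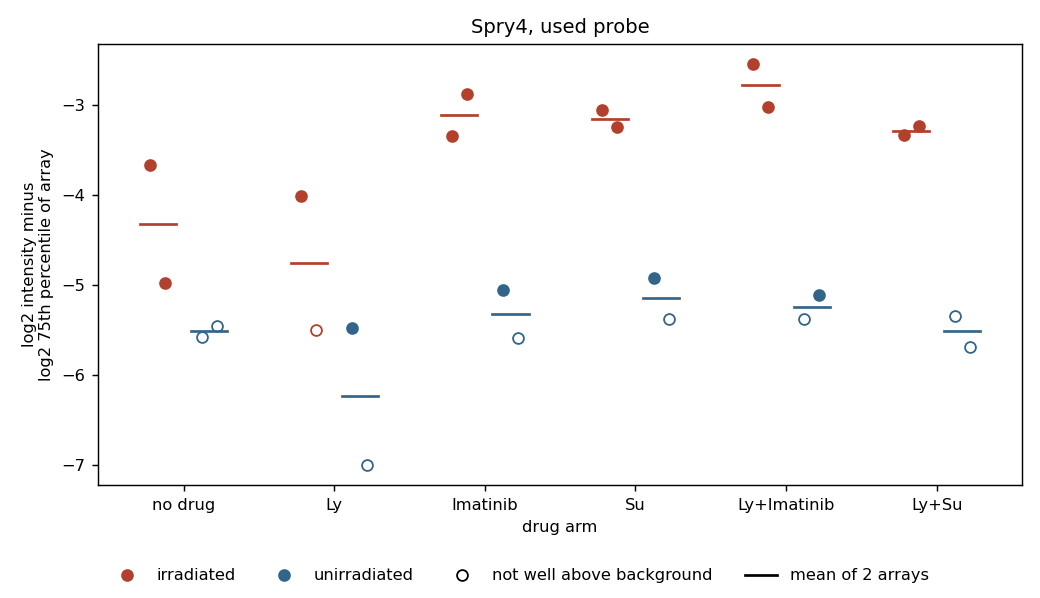
Spry4 level on each array, by drug arm, irradiated left of unirradiated in each arm, with open points for arrays on which the probe was not well above background and lines for the means of 2 arrays. The 8 irradiated arrays with Imatinib or Su lie between -3.34 and -2.55, while Irradiation and Irradiation+Ly each have 1 array at or below -4.98.

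In the order of the 12 group means of Spry4, Irradiation+Ly+Imatinib (-2.78 ± 0.34, SD, n = 2) came first, then Irradiation+Imatinib (-3.11 ± 0.33), Irradiation+Su (-3.15 ± 0.13) and Irradiation+Ly+Su (-3.29 ± 0.07). Irradiation (-4.33 ± 0.93) and Irradiation+Ly (-4.75 ± 1.05) followed. The 6 unirradiated groups came last, with means of -6.24 to -5.15, and have no order among themselves, since at most 1 array of each was well above background. Among the irradiated groups, the step from Irradiation+Ly+Su to Irradiation was the 1 step at which neighbours did not overlap. Irradiated groups with Imatinib or Su lay on slides 5 and 6, and Irradiation and Irradiation+Ly on slide 4, so this step cannot be told apart from the slide.

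The averaged Spry4 difference was 1.82 without replicate 1 of Irradiation and 1.92 without replicate 1 of ctrl, and its adjusted p stayed at or below 0.000131 without any 1 array. Its size depended on the background correction, since with normexp the difference was 0.82 (adjusted p = 4.58e-05). With 1 mean per slide, 3 slides against 3, it did not pass (adjusted p = 0.137), nor did Jun (0.2) or Spry2 (0.186), and 1 gene of 20421 passed in that test. The calls in single arms were fragile. The Su and Ly+Su calls were lost without any 1 of their 4 arrays (adjusted p up to 0.183 and 0.199). The Imatinib call was lost without replicate 1 of Imatinib (0.0835), replicate 2 of Imatinib (0.229) or replicate 2 of Irradiation+Imatinib (0.339). The Ly+Imatinib call was lost without replicate 1 (0.172) or replicate 2 (0.088) of Ly+Imatinib or replicate 1 of Irradiation+Ly+Imatinib (0.169). Quantile normalization ended the calls in the Imatinib (0.125), Su (0.107) and Ly+Su (0.0841) arms. A second Spry4 probe was not well above background on any of the 24 arrays and is not compared.

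Spry2, the other Sprouty gene, was represented by 2 probes that disagreed. The probe used for the gene, listed with a GenBank accession in the files, was at 0.30 to 0.73 with a median of 0.45 in the irradiated arrays, and at 0.42 to 1.01 with a median of 0.81 in the unirradiated arrays. It fell by 0.29 ± 0.07 (SE; 95% interval -0.43 to -0.15; adjusted p = 0.00456, limma), and the irradiated mean was lower in all 6 arms. Both irradiated arrays lay below both unirradiated arrays in 5 arms, the Ly arm being the exception. In no single arm did it pass, the nearest being the Su arm, with 0.55 and 0.35 in Irradiation+Su, against 1.01 and 0.87 in Su (adjusted p = 0.0706). The difference was -0.29 without replicate 1 of Irradiation and -0.29 without replicate 1 of ctrl.

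The second Spry2 probe, listed with the RefSeq transcript, was well above background on 22 of 24 arrays, all but replicate 1 of Irradiation and replicate 1 of Su. It was at -5.71 to -3.63 with a median of -3.94 in irradiated arrays, and at -5.38 to -4.20 with a median of -4.66 in unirradiated arrays. Tested on its own among 30508 probes, it rose by 0.51 ± 0.14 in the average over arms (adjusted p = 0.0164), the opposite of the first probe. Its 8 highest arrays were those of the irradiated groups with Imatinib or Su. It was at -3.82 and -3.63 in Irradiation+Imatinib and at -3.77 and -4.02 in Irradiation+Su, against -5.71 and -4.50 in Irradiation. Against Irradiation it was higher by 1.38 ± 0.35 in Irradiation+Imatinib (adjusted p = 0.0257), 1.21 ± 0.35 in Irradiation+Su (0.0239), 1.17 ± 0.35 in Irradiation+Ly+Imatinib (0.0354) and 1.27 ± 0.35 in Irradiation+Ly+Su (0.0186). These 4 comparisons share the 2 Irradiation arrays, lie across slides, and in replicate 1 of Irradiation (-5.71) the probe was not well above background. The differences of this probe were not refitted without that array, and the other Irradiation array was at -4.50.

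JUN is the founding Jun protein of AP-1, and its gene varied little between arrays. Jun was at 1.83 to 2.35 with a median of 2.18 in the irradiated arrays, and at 2.11 to 2.65 with a median of 2.48 in the unirradiated arrays. It fell by 0.27 ± 0.06 (SE; 95% interval -0.40 to -0.15; adjusted p = 0.0031, limma), and the irradiated mean was lower in all 6 arms. In 4 arms both irradiated arrays lay below both unirradiated arrays, while the arrays overlapped in the Ly and Imatinib arms. The difference was -0.25 without replicate 1 of Irradiation and -0.26 without replicate 1 of ctrl.

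Without any drug, Jun was the 1 gene of the 10 that passed, in a comparison in which 14.1% of all genes did. It was at 1.83 and 2.16 in Irradiation, against 2.65 and 2.51 in ctrl. It fell by 0.58 ± 0.14 (adjusted p = 0.0214, limma). The call was lost without replicate 1 of Irradiation (-0.42, adjusted p = 0.215), without replicate 1 of ctrl (-0.52, 0.0935) and without replicate 2 of ctrl (-0.65, 0.068). Replicate 1 of Irradiation and replicate 1 of ctrl are the arrays whose Jun spots spread widely. In the order of the group means ctrl was highest (2.58 ± 0.09, SD, n = 2) and Irradiation lowest (2.00 ± 0.24), and every group overlapped its neighbour.

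**Figure D3:**
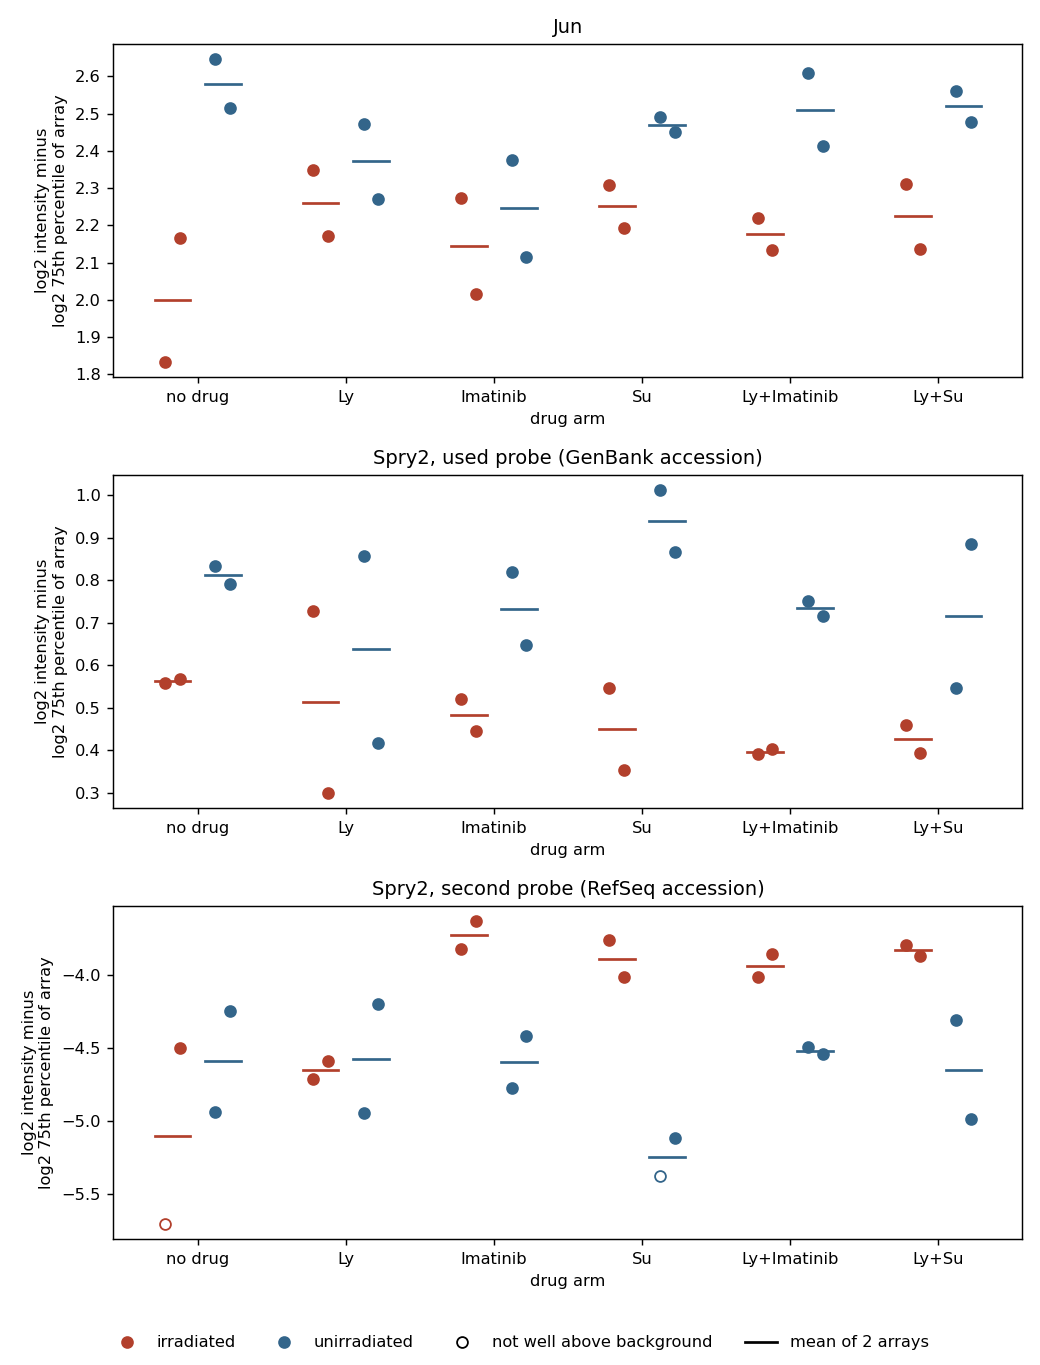
Level of Jun, of the Spry2 probe used and of the second Spry2 probe on each array, by drug arm, irradiated left of unirradiated, open where not well above background, with lines for means of 2 arrays. Jun and the Spry2 probe used have lower irradiated means in all 6 arms, whereas the second Spry2 probe has higher irradiated means in 4 of the 6.

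The phosphatase genes Dusp1 and Dusp6 and the other immediate early genes did not pass in the averaged comparison. Fos was at -2.12 to -0.38 with a median of -1.48 in the irradiated arrays, and at -2.70 to -1.04 with a median of -1.94 in the unirradiated arrays. Its difference of 0.43 ± 0.23 (adjusted p = 0.177) had a 95% interval of -0.07 to 0.93. Egr1 differed by 0.26 ± 0.18 (adjusted p = 0.291), with an interval of -0.13 to 0.65. The stress gene Atf3 differed by 0.16 (interval -0.12 to 0.45), Junb by 0.04 (-0.25 to 0.33) and Dusp1 by 0.11 (-0.11 to 0.33). Dusp6, a phosphatase specific for ERK, differed by -0.15 (-0.34 to 0.04). Without replicate 2 of Ly its difference was -0.22 and passed (adjusted p = 0.0268). Fosb, a Fos family gene, differed by -0.17 (-0.57 to 0.23). In the Ly arm none of the 10 passed, where 0.0490% of all genes passed. An unadjusted p under 0.05 was found there for 2 of the 10 and for 1164 of all 20421 genes.

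Egr1 was at -0.26 to 1.67 with a median of 0.54 in the irradiated arrays, and at -0.22 to 1.09 with a median of 0.17 in the unirradiated arrays. Its group means ran from 1.04 ± 0.89 (SD, n = 2) in Irradiation+Imatinib to -0.03 ± 0.01 in Su, with every neighbour overlapping. Atf3 was at -0.38 to 0.84 in irradiated arrays, against -0.73 to 0.64 in unirradiated ones, with the highest group mean in Irradiation (0.57 ± 0.38) and the lowest in Ly+Su (-0.49 ± 0.34). Both sets of lungs thus overlapped widely for these genes. Dusp1 was at 1.45 to 2.48 in irradiated arrays, against 1.43 to 2.23 in unirradiated ones, and its highest group, Irradiation+Ly+Imatinib (2.44 ± 0.04), did not overlap the next, ctrl (2.07 ± 0.23). Dusp6 was at 4.36 to 4.89 in irradiated arrays, against 4.33 to 5.16 in unirradiated ones. It was highest in Su (5.07 ± 0.01) and lowest in Irradiation+Su (4.51 ± 0.21), and the difference between these groups, -0.57 ± 0.22, did not pass (adjusted p = 0.114, limma).

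Adding a drug to irradiation changed none of the 10 genes past the test as measured by the probe used for each. The second Spry2 probe passed in 4 of the 5 comparisons, as given above, and was not refitted without replicate 1 of Irradiation. The share of all genes that passed was 0.921% for Irradiation+Ly, 13.2% for Irradiation+Imatinib, 25.9% for Irradiation+Su, 19.0% for Irradiation+Ly+Imatinib and 28.0% for Irradiation+Ly+Su, each against Irradiation, whose 2 arrays all 5 comparisons share. At an unadjusted p under 0.05 in limma, the counts among the 10 were 0, 1, 2, 2 and 1 in the same order. Among all 20421 genes they were 5062, 7253, 8319, 7664 and 8858. The largest differences were those of Spry4, 1.54 ± 0.52 in Irradiation+Ly+Imatinib (adjusted p = 0.0514), 1.22 in Irradiation+Imatinib (0.113), 1.17 in Irradiation+Su (0.106) and 1.04 in Irradiation+Ly+Su (0.138), against -0.43 in Irradiation+Ly (0.626), the 1 group on the same slide as Irradiation.

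JUNB is a Jun family protein, and its gene was highest in Irradiation. Junb was at 4.50 and 4.17 in Irradiation+Ly+Su, against 5.21 and 5.20 in Irradiation, a difference of -0.87 ± 0.33 (adjusted p = 0.0623). It was at 4.31 and 4.53 in Irradiation+Su, a difference of -0.79 ± 0.33 (adjusted p = 0.0903). A second Junb probe gave -0.94 and -0.89 for the same 2 comparisons. Dusp1 was at 2.41 and 2.48 in Irradiation+Ly+Imatinib, against 1.45 and 2.13 in Irradiation, a difference of 0.66 ± 0.25 (adjusted p = 0.0742). Without replicate 2 of Irradiation, Dusp1 passed there (0.99, adjusted p = 0.00955), and Jun passed in Irradiation+Ly (0.43, 0.0457) and Irradiation+Su (0.42, 0.0418). Without replicate 1 of Irradiation, Spry4 passed in Irradiation+Ly+Imatinib (2.20, 0.0415). Irradiation+Imatinib against Irradiation+Su, on 1 slide, gave no call among the 10, where 0.0832% of all genes passed. An unadjusted p under 0.05 was found there for 0 of the 10 and for 1768 of all 20421 genes. The interval for Spry4 there was -1.07 to 1.16, which is too wide to show that the groups were alike.

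In unirradiated lung Fosb fell with Su. FOSB is a Fos family partner of Jun proteins. Fosb was at -4.98 and -5.58 in Su, where 1 of the 2 arrays was well above background, against -3.76 and -2.79 in ctrl, where both were. The groups did not overlap, and the difference was -2.01 ± 0.46 (95% interval -2.99 to -1.02; adjusted p = 0.0345, limma). It was the 1 gene of the 10 to pass in Su against ctrl, where 2.64% of all genes passed. The call held without replicate 1 of ctrl (-2.49, adjusted p = 0.0357). It was lost without replicate 2 of ctrl (-1.52, 0.255) or without replicate 1 (-2.31, 0.121) or replicate 2 (-1.70, 0.248) of Su, and with normexp the difference was -1.11 (0.136). Of 11 heat shock genes tested, 5 also fell in Su (3 without replicate 1 of ctrl) and none rose, among them the chaperone genes Hspa1a (-1.46 ± 0.26, adjusted p = 0.0126) and Hspb1 (-0.74 ± 0.11, 0.00424). Their mean level was 3.24 and 3.17 in Su, against 3.56 and 3.88 in ctrl. The mean of 11 glucocorticoid response genes was 2.03 and 2.09 in Su, against 3.08 and 2.52 in ctrl. The part of these in the Fosb result was not tested, and Su and ctrl lay on different slides.

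The 4 other drugs or pairs gave no call against ctrl, whose 2 arrays they share. The share of all genes that passed was 0.00490% for Ly, 0.250% for Imatinib, 2.48% for Ly+Imatinib and 0.690% for Ly+Su. In the same order, 0, 1, 1 and 1 of the 10 had an unadjusted p under 0.05 in limma. Among all 20421 genes 1165, 2100, 3482 and 2681 did. Fosb was at -5.12 and -4.42 in Ly+Imatinib, a difference of -1.50 ± 0.46 from ctrl (adjusted p = 0.1). In Ly, on the same slide as ctrl, it was at -3.99 and -3.30 (-0.37, adjusted p = 0.98). Imatinib against Su, also on 1 slide, gave no call among the 10, where 0.304% of all genes passed. An unadjusted p under 0.05 was found there for 1 of the 10, Fosb (1.22 ± 0.46, adjusted p = 0.451, limma), and for 1701 of all 20421 genes. In the order of group means, Fosb was highest in ctrl (-3.27 ± 0.69, SD, n = 2) and lowest in Su (-5.28 ± 0.43), and each of the 11 steps was between overlapping neighbours.

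The irradiation difference of Fosb passed in no arm. Fosb was at -3.98 and -4.19 in Irradiation+Su, above both arrays of Su (1.20 ± 0.46, adjusted p = 0.108, limma). It was at -3.81 and -4.27 in Irradiation, below both arrays of ctrl (-0.76 ± 0.46, adjusted p = 0.254). The difference between these 2 differences was 1.96 ± 0.65 (adjusted p = 0.0635, limma), which did not pass. Over all arms the interaction of drug and irradiation passed for none of the 10 genes, where 1.11% of all genes passed. Of the 10, 1 had an unadjusted p under 0.05 in the F test, a threshold at which all genes are not counted here. Fosb had an adjusted p of 0.258 in that F test.

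Several of the 10 genes differed more between replicates of a group than most genes did. The SD within groups of 2, pooled over the 12 groups, was 0.62 for Fos, higher than for 91% of the genes tested. It was 0.56 for Spry4 (88.9%), 0.49 for Fosb (85.3%), 0.48 for Egr1 (84.6%), 0.35 for Junb (72.9%) and 0.34 for Atf3 (71.7%). Dusp1 (0.26, 57.3%) and Dusp6 (0.23, 49.8%) were near the median of all genes, 0.23, and Spry2 (0.16, 28.1%) and Jun (0.13, 19.7%) were below it. Between group means, Spry4 had an SD of 1.17, higher than for 99.0% of genes, whereas Fos had 0.42 (73.8%). These percentiles are over all genes tested, whatever their brightness. Spry4 was well above background on 15 of the 24 arrays and Fosb on 23. The unirradiated groups of Spry4 lay at or close to background, so its 2 SDs are not exact.

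The largest replicate gaps of Fos were in Ly+Su, with -2.70 and -1.19, in Ly+Imatinib, with -2.52 and -1.04, and in Irradiation+Imatinib, with -1.79 and -0.38. On these arrays Egr1 went the same way. Egr1 was at -0.22 and 0.92 in Ly+Su, at -0.04 and 1.09 in Ly+Imatinib, and at 0.42 and 1.67 in Irradiation+Imatinib. The same held for Junb, which was at 4.20 and 4.98 in Ly+Su, at 4.32 and 4.72 in Ly+Imatinib and at 4.39 and 5.14 in Irradiation+Imatinib. In Su both arrays were low in Fos, at -2.55 and -2.68, and both were at -0.03 and -0.04 in Egr1.

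Counted over the 12 groups, the array with more Fos was also the one with more Dusp1 in 11, with more Junb in 10, with more Fosb in 9, with more Dusp6 in 9 and with more Egr1 in 8. It was the one with more Jun in 3. Over the 24 arrays 9 relations of Fos with the other genes were computed, each with 100000 permutations and Benjamini-Hochberg adjustment over the 9. The permutations moved all 24 arrays freely, so their p values take no account of groups or slides. Fos correlated with Egr1 at r = 0.86 (Spearman 0.84) and with Junb at r = 0.78 (Spearman 0.80), and for all 4 values the permutation p was 1e-05, the smallest that 100000 permutations can give (adjusted 4.5e-05). Without the 2 arrays farthest from the median of Fos, r was 0.80 with Egr1 and 0.73 with Junb. Within the 12 irradiated arrays r was 0.86 with Egr1 and 0.80 with Junb, and within the 12 unirradiated arrays 0.87 and 0.84. The deviations from the group means, which leave out differences between groups and so between slides, correlated at 0.90 and 0.85. The 2 deviations of a group mirror each other, so these values rest on 12 independent pairs and have no p. Without replicate 1 of Irradiation and of ctrl, r over the other 22 arrays was 0.88 with Egr1 and 0.75 with Junb.

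Dusp1 correlated with Fos at r = 0.55 (permutation p = 0.0057, adjusted 0.0128; Spearman 0.61, permutation p = 0.00217, adjusted 0.00651). The relation was 0.53 without the 2 farthest arrays. It was 0.19 in the 12 irradiated arrays, 0.87 in the 12 unirradiated arrays and 0.62 for the deviations from group means, and the difference between the irradiated and unirradiated values was not tested. Replicate 1 of Irradiation had Fos at -0.73 and Dusp1 at 1.45, the lowest Dusp1 of the irradiated arrays. Without it and replicate 1 of ctrl, r was 0.71 over 22 arrays, 0.46 over the 11 irradiated and 0.89 over the 11 unirradiated. Jun ran the other way, with r = -0.61 (permutation p = 0.00138, adjusted 0.00414; Spearman -0.52, permutation p = 0.00996, adjusted 0.0224). Its r was -0.51 without the 2 farthest arrays, -0.69 in the irradiated arrays, -0.44 in the unirradiated arrays and -0.54 for the deviations from group means, and -0.55 over the 22 arrays without those 2. Fosb (r = 0.23), Atf3 (0.37), Dusp6 (0.11), Spry2 (-0.28) and Spry4 (0.32) had adjusted permutation p values of 0.305, 0.136, 0.617, 0.23 and 0.201. The deviations of Dusp6 from its group means correlated with those of Fos at 0.59, against 0.04 for Fosb, 0.05 for Atf3, 0.18 for Spry2 and 0.19 for Spry4.

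**Figure D4:**
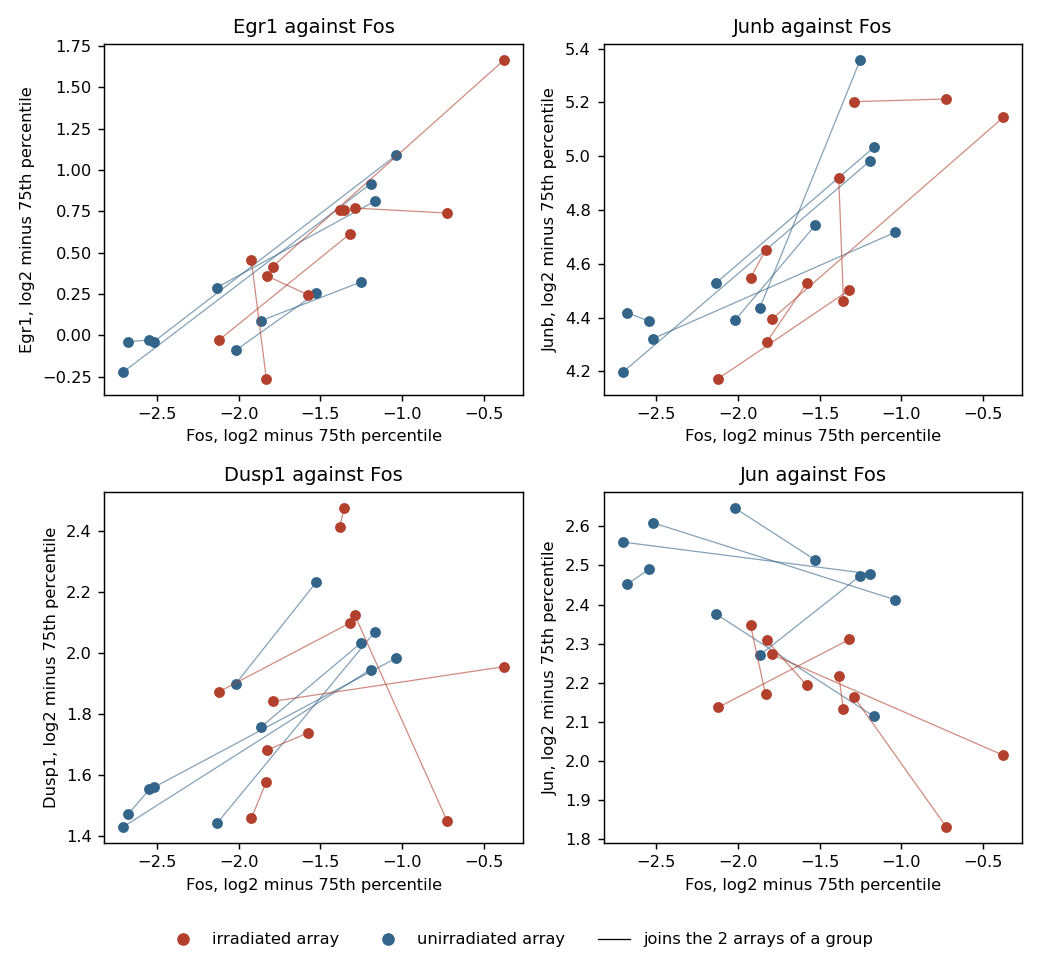
Levels of Egr1, Junb, Dusp1 and Jun against Fos on the 24 arrays, irradiated and unirradiated in different colours, with a line joining the 2 arrays of each group. Egr1 and Junb climb with Fos (r = 0.86 and 0.78), Dusp1 does so less tightly (0.55), and Jun descends (-0.61).

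Among all 20421 genes, those most like Fos over the 24 arrays were Egr1 (r = 0.86), Junb (0.78), Ccnyl1 (0.72), Ccn1 (0.72) and Etv4 (0.71). Ccn1 is itself an immediate early gene and codes for a matricellular protein, and Etv4 codes for an ETS factor induced by ERK signalling. The genes most like Dusp6 were Txnl4b (r = 0.80), Rabgef1 (0.78), Bbc3 (0.78), Top1 (0.75) and Ralb (0.75), and none of the other 9 genes was among them. These values describe arrays that share groups and slides.

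The wider families were counted in the averaged irradiation comparison, in which 32.6% of all genes passed. Of 33 other immediate early genes tested, 5 rose, 4 fell and 24 did not pass, with a median difference of 0.00. Without replicate 1 of Irradiation 4 rose and 3 fell, and without replicate 1 of ctrl 2 rose and 3 fell. The 4 with the largest differences were Ccn2, which codes for a matricellular protein (0.58 ± 0.11, SE; adjusted p = 0.00122), Arc, a neuronal activity gene (0.56 ± 0.11; 0.00166), Nfil3, a bZIP repressor (0.49 ± 0.22; 0.0959), and Egr3 (0.42 ± 0.14; 0.0338). With quantile normalization Egr3 did not pass (0.14, adjusted p = 0.499).

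Of 18 other ERK feedback and output genes, 5 rose, 1 fell and 12 did not pass, with a median of 0.13. With replicate 1 of Irradiation left out, 7 rose and 2 fell. The ETS factor gene Etv4 rose by 0.79 ± 0.17 (adjusted p = 0.00267), the Sprouty-related gene Spred3 by 0.59 ± 0.17 (0.0158) and the cyclin gene Ccnd1 by 0.58 ± 0.09 (0.000489), while Etv5 differed by 0.31 ± 0.12 (0.065). The gene that fell was Il17rd, also called Sef, an inhibitor of FGF signalling (-0.24 ± 0.07; adjusted p = 0.0204, but 0.0713 with quantile normalization), and it is named after its values were seen. Of 24 genes of the receptor, RAS and ERK cascade, 3 rose and 5 fell (4 and 8 without replicate 1 of Irradiation), with a median of 0.00. The receptor gene Kit fell by 0.69 on the log2 scale (± 0.12; adjusted p = 0.001) and the kinase gene Araf by 0.35 (0.00372), and the scaffold gene Ksr1 was higher by 0.39 (0.00313, but 0.28 with quantile normalization).

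Of 12 AP-1 target genes, 7 rose, 1 fell and 4 did not pass, and the median difference was 0.65, against 0.01 over all genes. The counts were 7 and 1 also without replicate 1 of Irradiation or of ctrl. The cytokine gene Il6 rose by 2.00 ± 0.32 (adjusted p = 0.00049), the matrix gene Tnc by 1.89 ± 0.25 (0.00014) and the protease inhibitor gene Timp1 by 1.04 ± 0.23 (0.00359), and the protease gene Mmp9 fell by 1.01 (0.0258). Of 12 other AP-1 and bZIP partners, 3 rose and 3 fell. Of 15 stress kinase genes, 1 rose (3 without replicate 1 of Irradiation, 0 without replicate 1 of ctrl) and 2 fell, Mapk12 by 0.47 (0.000996) and Map3k5 by 0.36 (0.00267). Of 8 SRF, TCF and CREB factor genes, 1 rose and 2 fell (2 and 3 without replicate 1 of Irradiation), with Crem at 0.27 ± 0.08 (0.0182) and Mrtfa at -0.21 ± 0.06 (0.0142).

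Markers of cell types also moved in the averaged irradiation comparison, in which 32.6% of all genes passed. Of 8 macrophage markers 6 rose (5 without replicate 1 of Irradiation or of ctrl) and none fell. Their mean level was 0.80 to 2.39 in the irradiated arrays, against 0.41 to 1.23 in the unirradiated arrays, with all 8 above background on every array. Of 6 mast cell markers 4 rose and 1, Kit, fell, with a mean level of -2.96 to 1.04 in irradiated arrays (up to -0.80 without replicate 1 of Irradiation), against -3.65 to -2.72 in unirradiated ones. Of 6 fibroblast markers 2 rose, with a mean level of 0.47 to 2.13 in irradiated arrays, against 0.41 to 0.84 in unirradiated ones.

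Most markers of ciliated, club, alveolar type I and T and NK cells fell, while those of alveolar type II and B cells did not. Of 5 ciliated cell markers 4 fell, of 4 club cell markers 3, of 6 alveolar type I markers 4 (1 rose, none without replicate 1 of ctrl) and of 7 T and NK cell markers 4. The mean level of the ciliated markers was 2.04 to 2.80 in irradiated arrays, against 2.65 to 3.13 in unirradiated ones. Of 8 endothelial markers 1 rose and 3 fell (3 and 2 without replicate 1 of Irradiation), with a mean level of 2.86 to 3.80 in irradiated arrays (from 3.45 without that array), against 3.53 to 3.79 in unirradiated ones. Of 8 alveolar type II markers 1 rose and none fell (3 rose without that array, none without replicate 1 of ctrl). Of the other lists, 2 of 6 cardiac and 1 of 6 neutrophil markers fell, 1 of 6 B cell markers rose, and none of 5 smooth muscle markers passed. The part of these markers in the differences of Spry4, Jun and Spry2, and in those of the AP-1 target and other gene lists, was not tested.

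In Irradiation against ctrl, where 14.1% of all genes passed, 5 of the 12 AP-1 target genes rose and none fell, with a median of 1.12. The cytokine gene Il6 rose by 3.38 ± 0.79 (adjusted p = 0.0176, limma) and the chemokine gene Ccl2 by 2.94 ± 0.47 (0.00486). Of the 33 other immediate early genes 1 rose, Egr2 (1.15 ± 0.30; 0.0249), and 4 fell, among them the kinase gene Sik1 (-1.70 ± 0.45; 0.0269) and the nuclear receptor gene Nr4a2 (-0.82 ± 0.18; 0.0154). Of the 18 other ERK feedback and output genes, Spred1 (1.10 ± 0.27; 0.0208) and Ccnd1 (0.84 ± 0.23; 0.0299) rose, and the phosphatase gene Dusp7 (-1.06 ± 0.27; 0.0236) and the EGF receptor inhibitor gene Errfi1 (-0.77 ± 0.22; 0.0379) fell. These counts depended on single arrays. The share of all genes that passed without those arrays is not given here, so lost calls are not read as particular to these lists. Without replicate 1 of Irradiation 1 of the AP-1 target genes rose, and none of the other immediate early genes or of the ERK feedback and output genes passed. With replicate 1 of ctrl left out, 3 AP-1 target genes rose, 2 other immediate early genes fell and no ERK feedback or output gene passed. In the same comparison 7 of 8 macrophage markers rose (2 without replicate 1 of Irradiation, 6 without replicate 1 of ctrl), with a mean level of 2.39 and 1.90 in Irradiation, against 0.52 and 0.50 in ctrl, and 4 of 6 mast cell markers rose and 1 fell (none passed without replicate 1 of Irradiation). The mast cell mean was 1.04 and -1.36 in Irradiation, against -3.37 and -3.48 in ctrl. Of 6 fibroblast markers 2 rose (0 without replicate 1 of Irradiation, 1 without replicate 1 of ctrl). The fibroblast mean was 1.87 and 1.22 in Irradiation, against 0.54 and 0.52 in ctrl. The part of these markers was not tested.

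In Irradiation+Ly+Su against Irradiation, where 28.0% of all genes passed, 4 of the 12 AP-1 target genes fell and none rose, with a median of -1.22. Ccl2 (-2.82 ± 0.47; adjusted p = 0.00173, limma) and Timp1 (-2.76 ± 0.56; 0.00439) fell. Of the 33 other immediate early genes 5 fell, among them Egr2 (-1.36 ± 0.30; 0.00634) and the small Maf gene Maff (-1.32 ± 0.28; 0.00525), and 1 rose. Of the 18 ERK feedback and output genes 3 rose and none fell, among them Spred3 (1.36 ± 0.41; 0.0264) and Etv5 (0.88 ± 0.30; 0.0412). The Irradiation arrays are shared with the comparison against ctrl, so the directions in these 2 comparisons are not independent. Without replicate 1 of Irradiation, 2 AP-1 target genes fell, 1 other immediate early gene rose and none fell, and no ERK feedback or output gene passed. Of the 11 heat shock genes 10 fell (8 without that array). Of 8 macrophage markers 7 fell (2 without that array), with a mean level of 0.91 and 0.80 in Irradiation+Ly+Su, against 2.39 and 1.90 in Irradiation. The mast cell mean was -2.85 and -1.69 in Irradiation+Ly+Su, against 1.04 and -1.36 in Irradiation. The part of these in the list counts was not tested. The share of all genes that passed without that array is not given here.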

How the data were processed

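Total RNA of 24 lung samples, 12 groups of 2, was labelled with Cy3 and hybridised to single-colour arrays, per the labels' protocols. Per the file headers, the deposited values are intensity made by Agilent Feature Extraction 9.1.3.1, background-subtracted, not scaled between arrays. Spots of a probe were averaged, 619 of 41174 probes with outlier flags were dropped, genes were named by a table of RefSeq genes, and the probe of highest mean stood for a gene. The log2 intensity minus the log2 75th percentile of each array was tested with limma 3.58.1 in R 4.3.3, 1 mean per group, for the 20421 of 27401 genes well above background on both arrays of a group, with 12 residual and 2.10 prior degrees of freedom, Benjamini-Hochberg adjustment and a threshold of 0.05. The scripts were tested on simulated data. The replicate number was not taken to pair arrays: over 66 pairs of groups the correlation of same-numbered deviations had a median of 0.04 (range -0.20 to 0.25), and 20 pairs were over 0.1. For 1 Irradiation+Su array the replicate number differed between title and source name, and that of the title was taken. All 10 genes are named in every comparison, in other lists up to 4 genes by size of difference, and for likeness the 5 genes of highest correlation. The members and lists were chosen with earlier results of these data known. Alternatives were quantile normalization, normexp, the deposited series table, other filters and probes, array weights, slide terms, a replicate block and leaving out arrays or arms.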

Additional observations from a re-analysis of the deposited data

How the results depend on the processing

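No called difference of the 10 genes changed sign with the probe used for the gene, whereas the second Spry2 probe rose in the averaged comparison (0.51, adjusted p = 0.0164), and of the recounts of called genes under other settings 257 stayed within 1.5 times and 49 did not. With slide means the averaged comparison called 0 of the 10 in place of 3. With only genes above background on all 24 arrays the Imatinib, Su, Ly+Imatinib and Ly+Su arms and Su against ctrl had 0, since Spry4 and Fosb were not tested there. With limma on the 2 groups alone the arms without drug, with Imatinib and with Ly+Imatinib and Su against ctrl had 0 and the Su arm 6. With arrayWeights, which weighted groups and not single arrays (0.18 for Irradiation to 2.77 for Su), the arm without drug had 0 and the Su arm 5. The share of all genes called under these 2 settings is not given here, so the counts of 6 and 5 are not read as a result about the 10 genes. Without a filter on dim probes Su against ctrl had 0. Quantile normalization gave 0 in the Imatinib, Su and Ly+Su arms and in Su against ctrl, and 1 in Irradiation+Su against Irradiation. Normexp gave 0 in the Ly+Su arm and Su against ctrl, and 1 in Irradiation+Su and in Irradiation+Ly+Imatinib against Irradiation. It was fitted without spots whose local background was over 10 times the array median, a choice made after seeing that such spots set the planned fit on some arrays. The replicate block gave 2 calls in Irradiation+Ly+Imatinib against Irradiation, Dusp1 (0.66, adjusted p = 0.0493) and Spry4 (1.54, 0.0301), and changed no other count by over 1.5 times. Leaving out 1 array, the count ranged from 3 to 4 in the averaged comparison, from 0 to 2 in the arm without drug, from 0 to 1 in the Imatinib and Ly+Imatinib arms, in Su against ctrl, and in Irradiation+Ly, Irradiation+Su and Irradiation+Ly+Imatinib against Irradiation, and was 0 in the Su and Ly+Su arms. A lone array was then assumed to vary like the others, and the share of all genes called without each array is not given here. The cause was not tested for any of these changes. Slide as a random block was possible only with arm and irradiation as terms, and kept all 3 averaged calls. Dim signal limits Spry4, which was near background in unirradiated lung.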

Other observations

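Of 14 clock genes tested in the averaged irradiation comparison, 1 rose and 6 fell, against 32.6% of all genes called. The gene that rose was Npas2 (0.81 ± 0.17 on the log2 scale, SE; adjusted p = 0.00261, limma), a partner of BMAL1, and the output genes Hlf (-0.93 ± 0.14; 0.000283) and Dbp (-0.91 ± 0.19; 0.00248) and the repressor gene Per2 (-0.78 ± 0.13; 0.000605) fell. The mean level of the list was -1.40 to -0.23 in the irradiated arrays (from -0.91 without replicate 1 of Irradiation), against -0.61 to -0.10 in the unirradiated arrays. The labels give no hour of sampling. Of 11 heat shock genes 6 fell and none rose, led by Hspa4l (-0.54 ± 0.05; 3.82e-06) and Hspb1 (-0.53 ± 0.05; 3.38e-06). These lists were chosen with earlier results of these data known, and their relation to the 10 genes was not tested.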
